A study of Mus musculus with 2 samples.

Results

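*Hhip*, *Boc*, *Cdon*, *Gas1*, *Gli3* and *Sufu* encode co-receptors and modulators of the Hedgehog (Hh) pathway, and their transcripts were measured in single dermal cells of healing mouse skin wounds. The 6 genes were taken by symbol from the gene list of the count matrices, which holds 27998 genes. Their unique molecular identifiers (UMIs, 1 per captured transcript) were summed in fibroblasts, endothelial cells, Schwann cells and mural cells of each library, and in fibroblasts with and without *Ptch1* transcripts.

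Wounds of control mice (*SM22rtTA; tetO-Cre; R26-Tomato*) and of *SM22-SmoM2* mice (*SM22rtTA; tetO-Cre; R26-SmoM2/Tomato*) were compared, each 4 to 5 weeks of age. All mice received chow with doxycycline at 20 g/kg from day 1 after wounding and tissue was taken 3 days after complete re-epithelialization. In both genotypes the *SM22α* promoter drives rtTA, which with doxycycline induces Cre. Cre turns on the red reporter Tomato. In the *SM22-SmoM2* genotype it also turns on SmoM2, a Smoothened protein that signals without ligand. Tomato-positive dermal cells were sorted and captured in droplets, giving 1 library per genotype from pooled wounds of several mice. There was therefore no replicate, and no difference below has a test between conditions. All intervals are 95% and cover the counting of UMIs only.

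In Hh signaling, ligand binding to Patched releases Smoothened, which acts at the primary cilium so that Gli transcription factors activate their targets. Cdon and Boc, cell surface proteins of the immunoglobulin superfamily, and Gas1, a lipid-anchored surface protein, bind ligand together with Patched and promote the response. Hhip binds ligand without signaling and so restrains the pathway, and like *Ptch1* its gene is a classical transcriptional target of the pathway. Gli3 acts mainly as a repressor in the absence of ligand, and Sufu holds Gli proteins inactive in the cytoplasm. In skin, Hh ligand made by the epithelium of the hair follicle acts on the dermis, which includes the dermal papilla, the mesenchymal niche of the follicle.

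The promoters of *Hhip* and *Gas1* are shown because these 2 members had the largest differences in opposite directions. Each sequence is the 250 bases before the RefSeq gene start (GRCm38.p6), 5′ to 3′ on the gene's strand, and capitals mark CCACCC, the core of the Gli motif.
*Hhip*, chr8:80058009-80058258, minus strand: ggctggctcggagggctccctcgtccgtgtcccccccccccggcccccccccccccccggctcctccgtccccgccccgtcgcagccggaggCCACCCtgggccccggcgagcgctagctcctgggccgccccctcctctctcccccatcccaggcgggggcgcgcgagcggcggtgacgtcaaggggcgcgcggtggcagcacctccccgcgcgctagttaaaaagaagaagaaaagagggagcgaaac
*Gas1*, chr13:60177536-60177785, minus strand: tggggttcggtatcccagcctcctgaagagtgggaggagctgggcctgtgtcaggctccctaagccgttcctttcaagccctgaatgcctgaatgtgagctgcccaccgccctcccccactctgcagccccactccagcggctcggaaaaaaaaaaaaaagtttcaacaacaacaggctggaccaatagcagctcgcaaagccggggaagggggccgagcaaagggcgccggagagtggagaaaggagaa
The full Gli motif GACCACCCA was searched on both strands and was in neither sequence, against 0.225% of 32851 promoters of that length. The core CCACCC, which lies within the full motif, was found once for *Hhip*, 158 bases before the start, and not for *Gas1*. It is in 28.1% of all promoters, so its presence at *Hhip* is common. *Gli3* held the core once, and the windows of *Cdon* and *Sufu* did not hold it. The windows of *Gli3* (chr13:15463473-15463722) and *Cdon* (chr9:35451826-35452075) lie inside the genes as annotated below, so they are not upstream of the annotated starts. The window of *Gas1* lies upstream of its annotated start (chr13:60177365) without reaching it, so the bases between them were not searched.

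In the GRCm38 annotation *Hhip* (ENSMUSG00000064325) lies at chr8:79965851-80058006 on the minus strand and *Boc* (ENSMUSG00000022687) at chr16:44485049-44558897 on the minus strand. *Cdon* (ENSMUSG00000038119) lies at chr9:35421128-35507652 on the plus strand, and *Sufu* (ENSMUSG00000025231) at chr19:46396896-46488804 on the plus strand. *Gas1* (ENSMUSG00000052957), at chr13:60174405-60177365 on the minus strand, overlaps the lincRNA *Gm48488* on the opposite strand, as *Hhip* does *Gm27820* and *Cdon* does *Gm24188*. *Gli3* (ENSMUSG00000021318), at chr13:15463235-15730026 on the plus strand, overlaps *Gm6556* on the opposite strand and *Gm48343* on its own. *Boc* overlaps *Mir3081* and *Cdon* overlaps *Gm25630* on the same strand, and *Sufu* overlaps no other gene. The strand counted is not given in the sources used here, so reads of overlapping genes could have been assigned to either.

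After filtering, 2856 control and 1792 *SM22-SmoM2* cells were kept, with medians of 8607.5 and 8837.5 UMIs per cell. Clusters were named from marker genes as fibroblast-like (1089 and 1100 cells), endothelial-like (693 and 264), Schwann-like (680 and 292) and mural-like (282 and 100). They are called fibroblasts, endothelial, Schwann and mural cells here. All 7 fibroblast markers exceeded 10 CPM, UMIs per 1000000 UMIs of the class, in the fibroblasts of each library, and together they summed to 54015 CPM in control against 33591 CPM in *SM22-SmoM2*. Summed endothelial, Schwann, mural and immune markers were each below 80 CPM in fibroblasts of both libraries. A cluster of 51 *SM22-SmoM2* cells carried all 7 dermal papilla markers and was counted with the fibroblasts. It passed 2 fibroblast and 3 mural markers, where a name needed 3 or more, so it did not meet the fibroblast rule itself. Levels are UMIs summed over the cells of a class. These are 3′ tags that are not scaled by gene length, and levels were compared within a gene and not between genes.

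*Hhip*, the secreted or membrane-bound ligand trap, was the member that differed most, and it was found almost entirely in *SM22-SmoM2* fibroblasts. Control fibroblasts held 9 *Hhip* UMIs, or 0.638 CPM (0.292 to 1.21). *SM22-SmoM2* fibroblasts held 441 UMIs, or 35.3 CPM (32.1 to 38.8). The intervals were far apart, and the ratio was 55.3-fold, a log2 ratio of 5.79 (4.85 to 6.93). In the other lineages *Hhip* gave 0 and 1 UMIs in control and *SM22-SmoM2* endothelial cells, 1 and 2 in Schwann cells, and 1 and 0 in mural cells. No ratio was taken at such counts, and 0 UMIs allow up to 0.371 CPM in control endothelial cells and 4.98 CPM in *SM22-SmoM2* mural cells when 3 UMIs are taken as the limit. Of the 444 *Hhip* UMIs in the 4 lineages of the *SM22-SmoM2* library, 99.3% (98.0 to 99.9; exact binomial interval) were in fibroblasts, which held 71.7% of all UMIs of those lineages.

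*Gas1* and *Cdon* were lower in *SM22-SmoM2* fibroblasts, while *Boc* was near its control level. *Gas1* was at 354 CPM (344 to 364) in control fibroblasts, from 4986 UMIs. It was at 178 CPM (171 to 185) in *SM22-SmoM2* fibroblasts, from 2222 UMIs, a log2 ratio of -0.99 (-1.06 to -0.92). *Cdon* was at 34.8 CPM (31.8 to 38.1) in control and 19.1 CPM (16.7 to 21.6) in *SM22-SmoM2* fibroblasts, a log2 ratio of -0.87 (-1.10 to -0.64). For both co-receptors the libraries' intervals did not overlap. How many of all genes had intervals apart, as these and *Hhip* did, was not counted. *Boc* was at 12.6 CPM (10.8 to 14.5) in control and 11.8 CPM (9.95 to 13.8) in *SM22-SmoM2* fibroblasts, with overlapping intervals and a log2 ratio of -0.09 (-0.42 to 0.23). The ratio for *Gas1* lay at the edge of the 2-fold limit and crossed it without cycling fibroblasts (-1.15), in cells of 8000 to 16000 UMIs (-1.13) and with Leiden clustering (-1.08). *Cdon* crossed it in cells thinned to 2500 UMIs (-1.06).

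*Gli3* and *Sufu*, the intracellular members that restrain target genes, had levels whose intervals overlapped between the libraries. *Gli3* was at 19.4 CPM (17.1 to 21.8) in control fibroblasts and 16.3 CPM (14.2 to 18.7) in *SM22-SmoM2* fibroblasts, a log2 ratio of -0.25 (-0.51 to 0.02). *Sufu* was at 5.75 CPM (4.56 to 7.14) and 6.17 CPM (4.87 to 7.71), a log2 ratio of 0.10 (-0.37 to 0.57). The other Gli genes stood apart from *Gli3*. *Gli1*, an activator and a target of the pathway, was at 5.96 CPM in control fibroblasts and at 33.2 CPM in those of *SM22-SmoM2* (log2 ratio 2.48, 2.13 to 2.83). *Gli2*, the main activator, was at 3.83 and 15.1 CPM (1.97, 1.53 to 2.44).

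Past 2-fold in fibroblasts was 1 of the 6 members, *Hhip*, where 6.46% of 13020 genes with at least 20 UMIs were higher past 2-fold and 6.14% were lower. The median log2 ratio of the 6 members was -0.17, beside -0.06 over all genes tested. All 6 passed the limit of 20 UMIs, though *Hhip* passed it only through the *SM22-SmoM2* library.

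**Figure D1:**
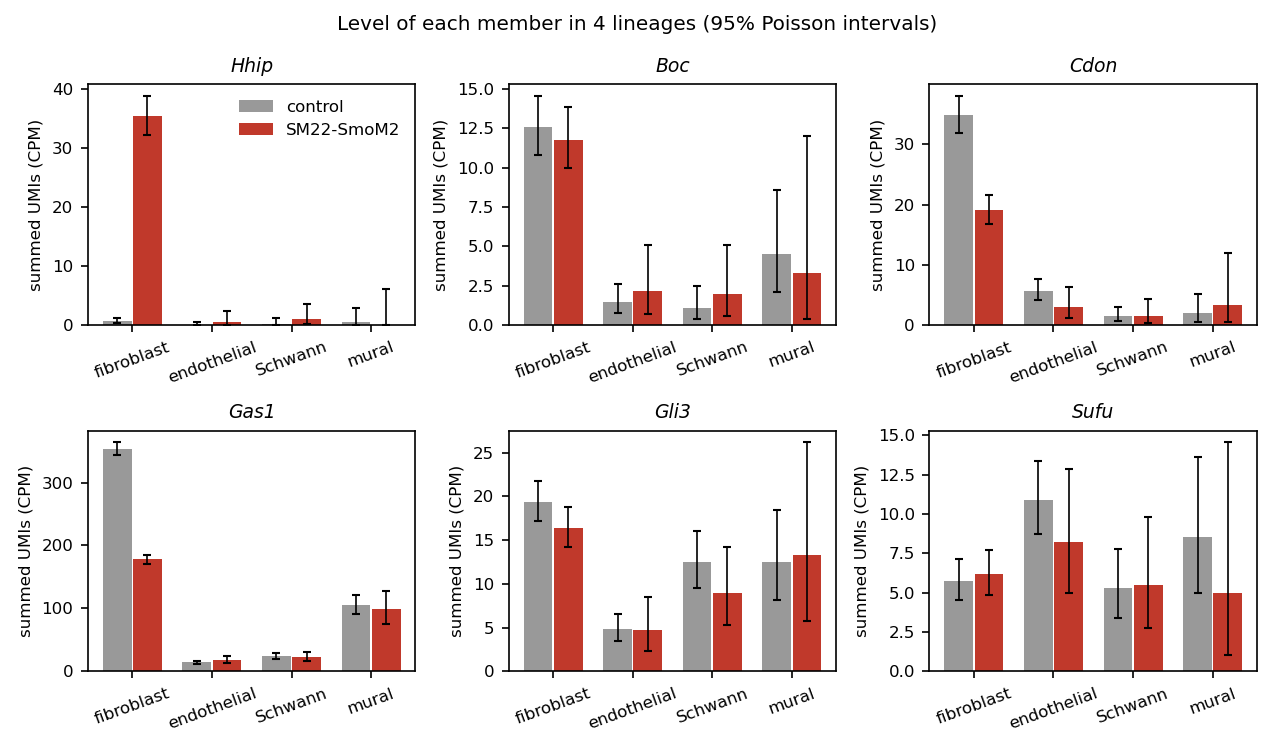
Level of each member (CPM, vertical axes starting at 0) in 4 lineages of the control (grey) and *SM22-SmoM2* (red) libraries, with 95% Poisson intervals. *Hhip* stands at 35.3 CPM in *SM22-SmoM2* fibroblasts and near 0 in every other class, whereas *Gas1* and *Cdon* are highest in control fibroblasts.

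The libraries also differed in other respects that move with these ratios. Among fibroblasts whose sex could be read from Y-linked genes or *Xist*, 74.5% (71.5 to 77.4) were male in control and 94.4% (92.7 to 95.9) in *SM22-SmoM2*. In male fibroblasts alone the log2 ratio was 6.72 for *Hhip*, -0.83 for *Gas1* and -0.87 for *Cdon*. Cycling fibroblasts, with at least 3 UMIs over 5 proliferation genes, numbered 113 in control and 150 in *SM22-SmoM2*. *Gas1*, whose name refers to growth arrest, was at 294 CPM in cycling and 365 CPM in other control fibroblasts. In *SM22-SmoM2* the order was the opposite, with 241 CPM in cycling and 165 CPM in other fibroblasts. *Hhip* was at 32.6 CPM in cycling and 35.9 CPM in other *SM22-SmoM2* fibroblasts, with a log2 ratio of -0.14 (-0.53 to 0.23).

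In endothelial, Schwann and mural cells no member was past 2-fold between the libraries, of 4, 3 and 3 members with at least 20 UMIs. Of all genes tested, 1.59% were higher and 3.13% lower past 2-fold in endothelial cells, 1.87% and 3.64% in Schwann cells, and 2.34% and 6.08% in mural cells. *Gas1* in mural cells was at 106 CPM (91.9 to 121) in control and 99.6 CPM (76.0 to 128) in *SM22-SmoM2*, a log2 ratio of -0.09 (-0.52 to 0.33). In Schwann cells it was at 24.7 and 23.4 CPM (-0.08, -0.60 to 0.42), and in endothelial cells at 14.3 and 18.2 CPM (0.34, -0.20 to 0.86). In cells thinned to 2500 UMIs the ratio was -0.75 in Schwann cells (13 against 51 UMIs) and -0.61 in endothelial cells (5 against 20 UMIs), outside the intervals just given, and -0.94 in fibroblasts. In mural cells thinned alike the *Gas1* ratio was 0.03. With all UMIs the *Gas1* intervals of these lineages lay above that of fibroblasts (-1.06 to -0.92). The thinned Schwann and endothelial ratios rest on too few UMIs to tell whether thinning moved them. The low *Gas1* ratio was therefore not shown to be particular to fibroblasts. *Cdon* in endothelial cells was at 5.69 CPM in control against 3.03 CPM in *SM22-SmoM2* (-0.91, -2.30 to 0.25), from 46 and 7 UMIs, so its interval was wide. *Gli3* ranged in log2 ratio from -0.47 to 0.08 and *Sufu* from -0.77 to 0.05 over these lineages, and all 6 intervals included 0.

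**Figure D2:**
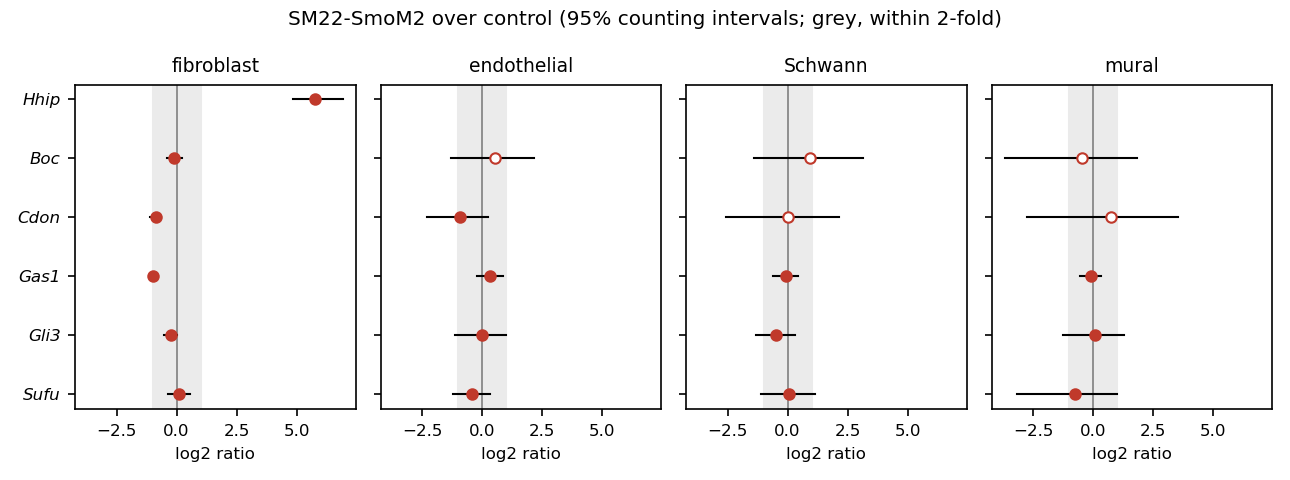
Log2 ratio of *SM22-SmoM2* over control for each member in 4 lineages, with 95% counting intervals. Grey bands mark the range within 2-fold, open circles mark fewer than 20 UMIs over both libraries, and a member without a circle had too few UMIs for a ratio. Only *Hhip* in fibroblasts lies outside the band among filled circles, and *Gas1* in fibroblasts sits at its lower edge.

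Most UMIs of the surface co-receptors were in fibroblasts in both libraries, while *Sufu* was spread over all lineages. In the control library 87.2% of *Boc*, 89.6% of *Cdon* and 91.8% of *Gas1* UMIs of the 4 lineages were in fibroblasts, which held 48.7% of all UMIs. For *Gli3* the share was 68.9% (64.1 to 73.5) and for *Sufu* 38.4% (31.8 to 45.3). In *SM22-SmoM2* fibroblasts, with 71.7% of all UMIs, the shares were 93.0% for *Boc*, 95.2% for *Cdon* and 93.7% for *Gas1*. *Gas1* in mural cells of that library, at 99.6 CPM, was within 2-fold of fibroblasts at 178 CPM (log2 ratio 0.84, 0.47 to 1.23). Control fibroblasts exceeded endothelial cells past 2-fold for 4 of 5 members tested (17.8% of all genes were higher and 23.3% lower). They exceeded Schwann cells for 3 of 5 (16.6% higher, 18.6% lower) and mural cells for 3 of 5 (13.0% higher, 16.6% lower). In *SM22-SmoM2* the counts were 5 of 6 over endothelial cells (17.0% higher, 18.9% lower) and 4 of 6 over Schwann cells (15.7% higher, 14.6% lower). Over mural cells the count was 3 of 6 (11.7% higher, 17.3% lower). The 17.3% may be too high, since a mural count of 0 was replaced by 3 UMIs, or 4.98 CPM. *Hhip* was among them each time, with 441 UMIs in fibroblasts against 1, 2 and 0. It thus passed the limit of 20 UMIs only through fibroblasts. So did *Boc* in all 6 comparisons, and *Cdon* in all but that with control endothelial cells (46 UMIs). The call of *Gli3* over *SM22-SmoM2* endothelial cells (11 UMIs) had the same limit. No member was lower past 2-fold in fibroblasts in any of these 6 comparisons.

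*Gas1* was the co-receptor with the clearest order of lineages. In control cells it went from 354 CPM in fibroblasts to 106 CPM in mural cells, 24.7 CPM (20.4 to 29.6) in Schwann cells and 14.3 CPM (11.8 to 17.2) in endothelial cells, and no neighbouring intervals overlapped. In *SM22-SmoM2* the order was kept, but the intervals of Schwann (17.2 to 31.1) and endothelial cells (13.1 to 24.6) overlapped. *Boc* in control was at 4.51 CPM (2.06 to 8.56) in mural, 1.48 CPM (0.766 to 2.59) in endothelial and 1.05 CPM (0.342 to 2.46) in Schwann cells, below its fibroblast level and with overlapping intervals among the 3. *Cdon* in control was at 5.69 CPM (4.16 to 7.58) in endothelial cells, above Schwann cells at 1.48 CPM (0.594 to 3.04), and at 2.0 CPM (0.546 to 5.13) in mural cells.

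*Gli3* was at 12.5 CPM (8.11 to 18.5) in control mural cells, 12.4 CPM (9.47 to 16.1) in Schwann cells and 4.82 CPM (3.43 to 6.59) in endothelial cells. Fibroblasts exceeded mural cells by a log2 ratio of 0.63 (0.04 to 1.28), Schwann cells by 0.64 (0.23 to 1.07) and endothelial cells by 2.01 (1.52 to 2.53). *Sufu* had its highest control level in endothelial cells, at 10.9 CPM (8.72 to 13.4), and its fibroblast level was lower (log2 ratio -0.92, -1.37 to -0.47). Control mural (8.52 CPM), fibroblast (5.75 CPM) and Schwann cells (5.27 CPM) had overlapping intervals for *Sufu*.

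Fibroblast transcripts also occurred in the other lineages, and their levels there were set beside those of the members. In control endothelial cells the 7 fibroblast markers stood at 1.24% to 2.50% of their fibroblast levels. *Gas1* stood at 4.05%, *Boc* at 11.8%, *Cdon* at 16.3% and *Gli3* at 24.9%, all above that range. In control mural cells the markers ranged from 1.54% to 12.1%, with *Gas1* at 29.9% and *Cdon* at 5.75%, the latter inside the range. Only *Lox*, *Col1a1* and *Col1a2* exceeded *Cdon* there, and the other markers were at 3.69% or less. In control Schwann cells they ranged from 1.03% to 17.3%, which held *Boc* (8.40%), *Cdon* (4.24%) and *Gas1* (6.98%) but not *Gli3* (64.3%). *Col1a1* (11.7%) and *Col1a2* (17.3%) set that upper end. The other markers were at 1.88% or less, below all these members. The part of free RNA in the low values of *Boc*, *Cdon* and *Gas1* was not tested.

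The share of fibroblasts with a member detected was taken after each cell had been thinned to 2500 UMIs. *Hhip* was detected in 0.184% (0.0222 to 0.662) of 1089 control and 8.18% (6.63 to 9.96) of 1100 *SM22-SmoM2* fibroblasts. Before thinning the shares were 0.551% and 22.5%, at median depths of 12471 and 10940.5 UMIs. *Gas1* was detected in 49.95% (46.9 to 53.0) of control and 29.5% (26.9 to 32.3) of *SM22-SmoM2* fibroblasts, and in 79.0% and 55.5% before thinning. *Cdon* was detected in 8.08% (6.53 to 9.86) and 4.09% (3.00 to 5.44), and in 32.3% and 18.7% before thinning. *Boc* was in 2.75% and 3.09%, *Gli3* in 5.69% and 3.45%, and *Sufu* in 1.19% and 1.55% after thinning. Immune cells, at median depths of 7284 and 9923 UMIs, served as a background. After thinning, *Hhip* was in 0 of 81 control immune cells and 0 of 32 *SM22-SmoM2* immune cells, which allow up to 3.70% and 9.38%, and *Gas1* was in 3.70% and 0% of them. The limit in *SM22-SmoM2* immune cells is thus above the share of *Hhip* in fibroblasts. Without thinning *Hhip* was in 9.38% of *SM22-SmoM2* immune cells, and its level there, 8.28 CPM from 3 UMIs, was 23.4% of that in fibroblasts, where the 7 fibroblast markers stood at 16.4% to 35.4%. In endothelial cells of that library, 264 in number, *Hhip* was detected in 0.379% after thinning and equally before it, at a median depth of 7142 UMIs.

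Few fibroblasts showed several members at once. After thinning, 10.1% of control and 7.18% of *SM22-SmoM2* fibroblasts had at least 2 of the 6 members, and 42.9% and 58.0% had none. With all UMIs, 48.7% and 39.2% had at least 2, 12.8% and 22.0% had none, and no cell had all 6.

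The fibroblasts were then divided by *Ptch1*, which encodes the Hh receptor and is itself a target of the pathway. *Ptch1* UMIs were present in 108 control fibroblasts, or 9.92% (8.21 to 11.8), and in 640 *SM22-SmoM2* fibroblasts, or 58.2% (55.2 to 61.1). After thinning to 2500 UMIs the shares were 3.03% and 26.5%, so a cell without a *Ptch1* UMI may still express it. Median depth was 12888 UMIs with and 12459 UMIs without *Ptch1* in control, and 11298 and 10216.5 UMIs in *SM22-SmoM2*.

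In *SM22-SmoM2* fibroblasts *Hhip* was higher and *Gas1*, *Gli3* and *Cdon* were lower where *Ptch1* was detected. *Hhip* was at 48.5 CPM with and 14.4 CPM without *Ptch1* UMIs, a log2 ratio of 1.75 (1.38 to 2.14). *Gas1* was at 133 CPM with and 248 CPM without, a log2 ratio of -0.89 (-1.02 to -0.77). *Gli3* was at 13.5 and 20.8 CPM (-0.63, -1.04 to -0.22) and *Cdon* at 17.0 and 22.3 CPM (-0.39, -0.77 to -0.01). *Boc*, at 12.4 and 10.7 CPM (0.21, -0.29 to 0.73), and *Sufu*, at 6.41 and 5.78 CPM (0.15, -0.55 to 0.87), had intervals that included 0. With the division and the levels both taken at 2500 UMIs per cell their ratios were 1.13 for *Boc*, from 15 against 19 UMIs, and 1.30 for *Sufu*, from 8 against 9. Past 2-fold was 1 of 6 members, *Hhip*, where 5.39% of 11786 genes were higher and 2.78% lower, and the median over all genes was 0.14.

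In control fibroblasts *Gas1* was at 280 CPM with and 362 CPM without *Ptch1* UMIs, a log2 ratio of -0.37 (-0.52 to -0.23). The ratio depended on the division, at -0.98 when at least 2 *Ptch1* UMIs were required. With the division and the levels both taken at 2500 UMIs per cell it was -0.86 in control and -0.53 in *SM22-SmoM2*. *Cdon* was at 24.2 and 36.1 CPM (-0.58, -1.12 to -0.08). *Gli3* was at 19.3 and 19.4 CPM, *Boc* at 11.0 and 12.7 CPM and *Sufu* at 5.52 and 5.77 CPM, and each of their ratios had an interval that included 0. *Hhip* had 4 UMIs in the 108 cells with *Ptch1* and 5 in the 981 without, a log2 ratio of 2.80 (0.47 to 5.02). Of the 5 members with at least 20 UMIs none was past 2-fold, where 4.32% of genes were higher and 5.42% lower.

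Differences in *Hhip* and *Gas1* between the libraries were also present within each *Ptch1* class, but the classes were not matched for *Ptch1* or *Gli1*. Among cells with *Ptch1* UMIs the log2 ratio of *SM22-SmoM2* over control was 1.02 (0.79 to 1.25) for *Ptch1* itself. For *Gli1* it was 1.08 (0.54 to 1.67) in those cells and 1.95 (1.44 to 2.48) in cells without *Ptch1* UMIs. Whether *Hhip* and *Gas1* differ at equal *Ptch1* levels was not tested. In fibroblasts without *Ptch1* UMIs *Hhip* was at 0.395 CPM in control against 14.4 CPM in *SM22-SmoM2* (log2 ratio 5.19, 3.90 to 6.86). In those with *Ptch1* UMIs it was at 2.76 and 48.5 CPM (4.14, 2.77 to 6.02). *Gas1* was lower in *SM22-SmoM2* both without *Ptch1* UMIs (-0.55, -0.64 to -0.45) and with them (-1.07, -1.23 to -0.90), and these 2 intervals did not overlap. Past 2-fold with *Ptch1* UMIs were *Hhip*, higher, and *Gas1*, lower (8.30% of 11339 genes were higher and 6.12% lower). Past 2-fold without *Ptch1* UMIs was *Hhip* alone (4.13% of 12273 genes were higher and 6.58% lower). *Gli3* was near its control level without *Ptch1* (0.11, -0.24 to 0.45) and at -0.52 (-1.13 to 0.14) with it.

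By number of *Ptch1* UMIs per *SM22-SmoM2* fibroblast, *Hhip* stood at 14.4 CPM (11.3 to 18.3) at 0, 41.5 CPM (33.5 to 50.7) at 1, 44.8 CPM (37.6 to 53.1) at 2 to 3 and 59.9 CPM (50.5 to 70.6) at 4 or more. The largest step was from 0 to 1, and neighbouring intervals above it overlapped. *Gas1* stood at 248 CPM (234 to 263), 150 CPM (134 to 166), 132 CPM (119 to 146) and 120 CPM (107 to 135) over the same steps. For *Gas1* too the cells without *Ptch1* stood apart from the other 3 classes. *Gli3* was at 20.8, 10.6, 12.4 and 17.6 CPM, without an even order, and the cells with 4 or more *Ptch1* UMIs were also deeper, with a median of 13713 UMIs.

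In control fibroblasts *Gas1* stood at 362 CPM at 0, 337 CPM at 1, 236 CPM (192 to 287) at 2 to 3 and 8.0 CPM (0.203 to 44.6) at 4 or more *Ptch1* UMIs. The last class held 7 cells and 1 *Gas1* UMI. Without it, *Gas1* over the other 3 classes still went from 362 to 236 CPM.

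**Figure D3:**
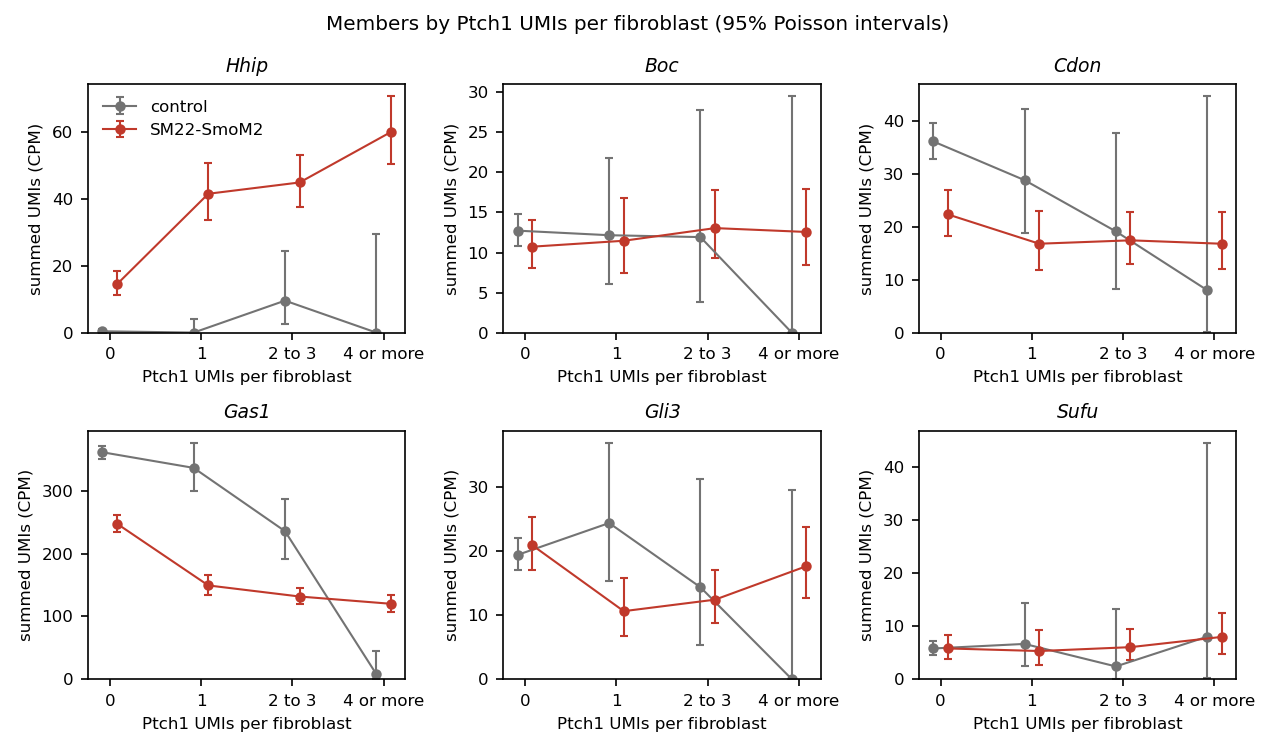
Level of each member (CPM) in fibroblasts with 0, 1, 2 to 3 and 4 or more *Ptch1* UMIs in control (grey) and *SM22-SmoM2* (red), with 95% Poisson intervals. In *SM22-SmoM2* cells *Hhip* goes from 14.4 to 59.9 CPM and *Gas1* from 248 to 120 CPM, while *Boc* and *Sufu* stay within overlapping intervals. The control class of 4 or more holds 7 cells.

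Sub-clusters of fibroblasts, called by their leading genes and built without the members, showed where *Hhip* and *Gas1* were found. A value is given for a library with at least 30 cells in the sub-cluster. Of the 9 control *Hhip* UMIs, 1 was in *Rbp4*-led cells, 1 in *C4b*-led cells and none in other control sub-clusters with a value. Most thus lay in control cells of sub-clusters without a control value, led by *Penk* (29 control cells), *Sfrp5* (13), *Tnmd* (8), *Areg* (7) and *Egfl6* (1). Their *Hhip* level was not computed, and the part of sub-cluster makeup in the ratio between the libraries was not tested. *Hhip* was highest in *SM22-SmoM2* cells led by *a*, *Ibsp* and *Cd24a* (77.6 CPM, 49.7 to 115; 45 cells, of which 43 were dermal papilla-like), and by *Sfrp5*, *Krt19* and *Gjb2* (73.6 CPM, 55.4 to 95.8; 62 cells). It was at 64.0 CPM in cells led by *Tnmd*, *Egfl6* and *Hpgd* and at 54.4 CPM in those led by *Penk*, *Mest* and *Fxyd7*. In these 4 sub-clusters *Ptch1* was between 205 and 336 CPM. In *SM22-SmoM2* cells led by *Crabp1*, *Prss35* and *Mmp11* (121 cells) *Hhip* gave 1 UMI, and in those led by *Rbp4*, *Ctla2a* and *Mmp3* (116 cells) it gave 0. *Ptch1* was low there, at 17.7 and 17.1 CPM.

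*Gas1* was low in 3 of the 4 sub-clusters with the most *Hhip*. It was at 25.9 CPM (11.2 to 51.0) in the *a*, *Ibsp* and *Cd24a* cells, 21.4 CPM (12.2 to 34.8) in the *Sfrp5*, *Krt19* and *Gjb2* cells and 45.7 CPM (37.4 to 55.3) in the *Penk*, *Mest* and *Fxyd7* cells. High *Hhip* and low *Gas1* did not always go together. The *SM22-SmoM2* cells led by *Egfl6*, *Fam212a* and *Fosl1* (149 cells) had *Gas1* at 344 CPM (314 to 375), near the mean of control fibroblasts, with *Hhip* at 31.8 CPM and *Ptch1* at 130 CPM. The *Tnmd*, *Egfl6* and *Hpgd* cells had *Gas1* at 162 CPM.

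Among control sub-clusters with at least 30 cells, *Gas1* was highest in 86 cells led by *Angptl1*, *Agtr2* and *Cilp*. It was at 745 CPM (689 to 805) there, and *Ptch1* gave 1.14 CPM. *Gas1* was lowest, at 6.06 CPM (1.65 to 15.5), in 59 cells led by *Cst6*, *Gcg* and *Trf*. Those 59 cells had the highest *Ptch1* level of these control sub-clusters, 51.5 CPM. Control cells of the smaller sub-clusters, where most control *Hhip* UMIs lay, are not in this ranking. *Hhip* in the 59 cells was at 0 UMIs, which allows up to 4.54 CPM. *Cdon* there was at 1.51 CPM from 1 UMI, and *Boc* gave 0 UMIs.

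The makeup of the fibroblasts differed between the libraries, since most sub-clusters held cells mainly of 1 library. Only 3 held 50 or more cells from both libraries, and these allowed a comparison within them. *Gas1* was at 505 CPM in control against 302 CPM in *SM22-SmoM2* in the *Crabp1*, *Prss35* and *Mmp11* cells (log2 ratio -0.74, -0.89 to -0.59). It was at 451 and 243 CPM in the *Rbp4*, *Ctla2a* and *Mmp3* cells (-0.89, -1.07 to -0.72), and at 412 and 280 CPM in cells led by *Gm26870*, *Spc25* and *Birc5* (-0.56, -0.78 to -0.33), the last pair being genes of cell division. *Gas1* was thus lower in *SM22-SmoM2* in all 3, and in the first 2 without any *Hhip* beyond 1 UMI in either library. *Hhip* in the third was at 0 UMIs in control and 24.4 CPM in *SM22-SmoM2*, at least a log2 ratio of 3.11. *Cdon* in these 3 had log2 ratios of -0.58 (-1.23 to 0.02), -0.27 (-0.79 to 0.23) and -0.40 (-1.16 to 0.34), closer to 0 than over all fibroblasts.

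The relation of the members to *Ptch1* was also examined within the 4 sub-clusters that held at least 30 *SM22-SmoM2* cells of each *Ptch1* class. For *Gas1* the log2 ratio of cells with over cells without *Ptch1* was -0.67 (-1.36 to 0.08) in the *Penk*, *Mest* and *Fxyd7* cells and -0.37 (-0.71 to -0.03) in those led by *Areg*, *Srxn1* and *Il1rl1*. It was -0.22 (-0.48 to 0.05) in the *Egfl6*, *Fam212a* and *Fosl1* cells and -0.05 (-0.55 to 0.47) in the *Tnmd*, *Egfl6* and *Hpgd* cells. Each was closer to 0 than the -0.89 over all *SM22-SmoM2* fibroblasts. For *Hhip* the ratios were 0.94 (0.01 to 2.04), 0.62 (-0.08 to 1.37), 0.01 (-0.92 to 1.00) and 0.52 (-0.38 to 1.54) in the same order, against 1.75 overall. The division by *Ptch1* thus moved with the sub-clusters, whose part in the overall ratios was not tested.

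**Figure D4:**
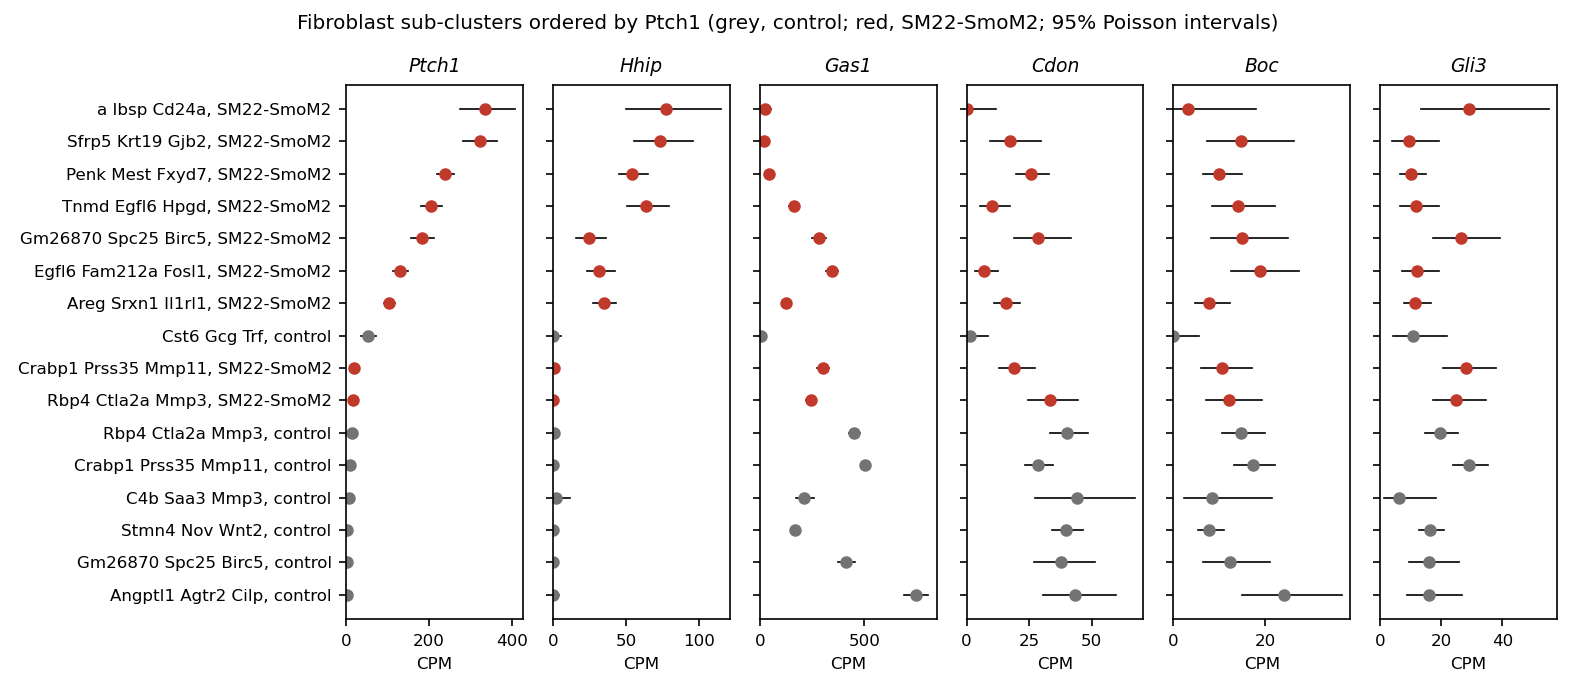
Levels (CPM, with 95% Poisson intervals) of *Ptch1* and 5 members in fibroblast sub-clusters, one row per sub-cluster and library with at least 30 cells, ordered by *Ptch1*. Control rows are grey and *SM22-SmoM2* rows red. *Hhip* is above 20 CPM only in *SM22-SmoM2* rows with *Ptch1* above 100 CPM, and *Gas1* ranges from 6.06 to 745 CPM.

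The dermal papilla-like cluster was set against all other *SM22-SmoM2* fibroblasts. *Hhip* was at 65.5 CPM in it and 34.4 CPM in the others (log2 ratio 0.93, 0.27 to 1.52). *Gas1* was at 57.3 and 182 CPM (-1.66, -2.36 to -1.05). *Cdon* gave 0 UMIs, which allows up to a log2 ratio of -1.26 against 19.6 CPM in the others, and *Boc* was at 5.46 and 11.96 CPM from 2 UMIs (-1.13, -4.19 to 0.75). *Gli3* was at 24.6 and 16.1 CPM (0.61, -0.54 to 1.56) and *Sufu* at 8.19 and 6.10 CPM (0.42, -1.89 to 2.03). The 3 co-receptors were lower past 2-fold and no member was higher, but *Cdon* (0 against 238 UMIs) and *Boc* (2 against 145) passed the limit of 20 UMIs only through the other fibroblasts, and the interval of *Boc* included 0. Of 11786 genes tested, 26.6% were higher and 8.71% lower, and the median gene was at 0.38. A count of 0 was replaced by 3 UMIs, which is 8.19 CPM in this small cluster. A gene with 0 UMIs there could thus be called higher. The 26.6% and the 0.38 may therefore be too high, by an amount that was not counted.

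Of 40 other genes of the Hh pathway, 35 had at least 20 UMIs in fibroblasts, and 6 were higher and 2 lower past 2-fold in *SM22-SmoM2*. Of all 13020 genes tested, 6.46% were higher and 6.14% lower, so the share of lower pathway genes was near that of all genes. The median log2 ratio of the 35 was 0.06, beside -0.06 over all genes. The higher genes were in reception and transcription for the most part. *Ptch1* was at 12.2 CPM in control against 147 CPM in *SM22-SmoM2* (log2 ratio 3.59, 3.36 to 3.82), and *Gpc3*, a glypican that binds Hh ligand, at 259 and 702 CPM (1.44, 1.384 to 1.496). *Gli1* and *Gli2* were higher as given above, as was *Mycn*, a transcription factor of proliferating cells, at 2.48 and 8.17 CPM (1.72, 1.15 to 2.32). *Scube3*, of a family of secreted proteins that release Hh ligand, was at 0.638 and 1.92 CPM (1.59, 0.43 to 2.88) from 9 and 24 UMIs.

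The 2 lower genes were *Rab23*, a small GTPase that restrains the pathway, at 33.0 and 12.7 CPM (-1.38, -1.65 to -1.12), and *Disp1*, which releases ligand from the cells that make it, at 6.17 and 2.88 CPM (-1.10, -1.70 to -0.52). *Smo* was at 52.4 and 57.2 CPM (0.13, -0.02 to 0.28). Whether SmoM2 transcripts were counted under *Smo* is not given in the sources used here, so this ratio does not measure SmoM2. Of 19 genes of the cilium and of signal transduction, all tested, 18 were within 2-fold and *Rab23* was the exception. Outside fibroblasts, 2 of 25 pathway genes tested were higher past 2-fold in endothelial cells (1.59% of all genes) and 1 of 25 in Schwann cells (1.87%). In mural cells 3 of 18 were higher (2.34%) and 1 was lower (6.08%). Among those higher were *Gpc3* in endothelial cells (5.19 and 19.9 CPM, 1.94, 1.30 to 2.58) and *Ptch1* in mural cells (8.02 and 28.2 CPM, 1.82, 0.74 to 2.90). The mural *Ptch1* UMIs, 16 in control and 17 in *SM22-SmoM2*, lay in 5.32% of 282 and 7% of 100 cells. After thinning the shares were 1.06% (0.220 to 3.08) and 2% (0.243 to 7.04). Fibroblasts held *Gpc3* at 259 and 702 CPM. In endothelial cells the fibroblast markers stood at 1.24% to 2.50% of their fibroblast levels in control and 1.89% to 3.52% in *SM22-SmoM2*. The endothelial *Gpc3* levels stood within these ranges. The part of free RNA was not tested.

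Over 18 clusters with at least 50 cells, *Boc* and *Gas1* had the most alike pattern of any pair of members. The Pearson correlation of their log2 levels was 0.92, and *Gas1* ranked first for *Boc* among 9069 genes. *Cdon* correlated with *Boc* at 0.77 and with *Gas1* at 0.76, while *Hhip* correlated with *Cdon* at 0.11 and *Sufu* with every other member between -0.07 and 0.09. The genes nearest to *Gas1* were *Itga11*, a collagen-binding integrin subunit, and *Mmp11*, a matrix metalloproteinase, both at 0.90. Nearest to *Cdon* were *Htra3*, a serine protease (0.93), *Figf*, a vascular growth factor (0.90), and *Chst12* (0.90). Nearest to *Hhip* were *Slc1a1*, a glutamate transporter (0.94), *Pfn2*, an actin-binding profilin (0.94), and *Ralgps2* (0.93). For *Gli3* they were *Rbms3* (0.85), *Mmp16* (0.83) and *Tmem132a* (0.83), and for *Sufu* they were *Tsen54*, *Ddx55* and *Pde4a* (0.77 to 0.79). *Igsf10* followed for *Boc* (0.90) and *Gas1* (0.88), and *Mfap4*, a microfibril protein, for *Boc* (0.89). The clusters pool both libraries and share their depth, so these values describe 18 points and are no test.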

How the data were processed

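Libraries were made with 10x Chromium v2 kits. The authors aligned reads to GRCm38 (mm10) in Cell Ranger and deposited raw UMI counts per gene and cell. The Cell Ranger version and the strand counted are not given in the sources used here. The deposited barcode list could not be tied to the cells, so barcodes shared by the libraries could not be counted. Of 27998 gene IDs, 27645 were in the annotation. Cells with at least 200 genes and at most 10% mitochondrial UMIs were kept.

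K-means (K = 20) used 20 principal components from 2000 variable genes, leaving out the members and other Hh genes, and fibroblasts were clustered again (K = 15). Clusters were named where 3 or more markers reached 10 CPM and exceeded the median cluster by 1.5 times. The sub-clusters with at least 2 markers of another lineage among their top 10 genes, and more than of their own, were left out as mixed (18 cells), and the dermal papilla-like cluster was counted with fibroblasts. Both rules were chosen with the clusters in view. Doublets were not removed. Scrublet marked 6 and 10 cells, 0.210% and 0.558%, and its removal was an alternative. Another 143 control and 45 *SM22-SmoM2* cells held both *Xist* and Y-linked UMIs.

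UMIs were summed per class and library. CPM has exact Poisson intervals, ratios have exact conditional intervals and shares have exact binomial (Clopper-Pearson) intervals, all covering counting error only. A count of 0 was replaced by 3 UMIs, giving a bound, and no ratio was taken when both counts were 3 or fewer. The shares and medians over all genes took such bounds as ratios. Genes with at least 20 UMIs over both classes were tested against a 2-fold limit. With 1 library per condition no p-values were computed. The intervals were tried on simulated Poisson counts, the model that they assume. Variation between cells or mice was not simulated, so this does not show that the intervals hold for it. The members and gene lists were chosen with earlier results of these data known. Named genes were the members, *Ptch1*, *Gli1*, *Gli2*, *Smo*, the other Hh genes past 2-fold in fibroblasts, and for each member the 3 genes with the highest correlation of log2(CPM + 10) over clusters, among named genes at 20 CPM in some cluster and without mitochondrial, ribosomal and sex-linked genes. Python 3.11.15, scanpy 1.11.5 and scikit-learn 1.9.0 were used. Alternatives changed the mitochondrial filter, the clustering, the doublets, the scaling, the depth, the sex of cells and the *Ptch1* limit. Some genes of the pathway are not reported here.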

Additional observations from a re-analysis of the deposited data

Results flagged for a closer look

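Immune cells served above only as a background and the keratinocyte cluster was in no comparison, yet some members exceeded the limit that a count of 0 allows in them. *Gas1* was at 14.6 CPM (6.99 to 26.8) in 81 control immune cells, from 10 UMIs, and at 22.1 CPM (9.53 to 43.5) in 32 *SM22-SmoM2* immune cells, from 8 UMIs. *Sufu* was at 5.83 CPM in control immune cells, from 4 UMIs. In the 16 control keratinocytes *Gas1* was at 52.7 CPM (30.1 to 85.6) from 16 UMIs, and *Boc* and *Sufu* were each at 16.5 CPM (5.35 to 38.5) from 5 UMIs. Fibroblast markers stood at 2.65% to 7.57% of their fibroblast level in control immune cells, where *Gas1* stood at 4.12%, and at 16.4% to 35.4% in *SM22-SmoM2* immune cells, where *Gas1* stood at 12.4%. The part of free RNA in these values was not tested.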

How the results depend on the processing

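Of 1108 values under the alternatives, 1055 lay within the counting interval of the reported value (counts of members or genes within 1.5 times), 53 lay outside and none of the called values changed sign. The cause was not tested. Those for fibroblasts between the libraries, the division by *Ptch1* and the counts come first. Between the libraries, *Gas1* in fibroblasts had log2 ratios of -1.08 with Leiden clustering, -0.83 in male cells, -1.15 without cycling fibroblasts and -1.13 in cells of 8000 to 16000 UMIs. *Gli3* gave -0.71 thinned to 2500 UMIs and -0.57 in cells of 8000 to 16000 UMIs, where *Sufu* gave -0.42. The count of fibroblast members past 2-fold was 2 under Leiden, thinning (through *Cdon*, -1.06), without cycling cells and at 8000 to 16000 UMIs. It was 1 in endothelial cells with the mean CPM per cell and 1 in mural cells under Leiden, and 5 for fibroblasts over mural cells with a 5% mitochondrial filter in *SM22-SmoM2*.

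For control cells with over without *Ptch1*, at least 2 *Ptch1* UMIs gave -1.12 for *Cdon*, -0.98 for *Gas1* and -0.81 for *Gli3*. Cells of 8000 to 16000 UMIs gave -1.50 for *Boc* and -0.81 for *Gas1*, male cells -0.64 for *Gas1* and thinning 0.60 for *Gli3*. A split and values both at 2500 UMIs, added after seeing the data, gave -1.52 for *Cdon*, -0.86 for *Gas1* and 0.68 for *Gli3*. At least 2 *Ptch1* UMIs, cells of 8000 to 16000 UMIs and the split at 2500 UMIs each gave 1 member past 2-fold. In *SM22-SmoM2* that split gave 1.08 for *Hhip*, 1.13 for *Boc*, -0.97 for *Cdon*, -0.53 for *Gas1* and 1.30 for *Sufu*. *Boc* gave 0.79 thinned, and *Gas1* -1.03 without cycling cells and -1.04 centred on the median gene. These 2, the split at 2500 UMIs and cells of 8000 to 16000 UMIs gave 2 members past 2-fold.

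Of the lineage values outside their intervals, thinning to 2500 UMIs gave the most. Between the libraries it gave -0.61 for *Gas1* in endothelial cells, and -0.75 for *Gas1* and -1.24 for *Sufu* in Schwann cells. For control fibroblasts it gave 4.35 for *Boc*, 4.996 for *Gas1* and 2.74 for *Gli3* over endothelial cells, and 3.05 for *Boc* over mural cells. For *SM22-SmoM2* fibroblasts it gave *Gas1* 4.67 over endothelial and 3.43 over Schwann cells. Male cells gave 4.09 for *Boc* over endothelial and 4.13 for *Gas1* over Schwann cells in control, and 3.47 for the latter in *SM22-SmoM2*, where the mean CPM per cell gave *Gas1* 3.86 over endothelial cells.

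Genes past 2-fold in fibroblasts numbered 1641, and 2683 with no minimum of UMIs. Leaving out the dermal papilla-like cluster or sub-clusters with 1 marker of another lineage, both added later, moved no value. No paired analysis was possible because each genotype had 1 library and no result came from a test between replicates, and for the same reason no replicate could be left out. *Sufu*, with 81 and 77 UMIs in fibroblasts, and all members in mural cells except *Gas1* and *Gli3* rest on few UMIs.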
